A study of Mus musculus with 12 samples.

Results

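The genes described here are 37 genes of the amino acid stress response, amino acid and serine synthesis, folate one-carbon metabolism and amino acid transport. They are a list of names, with no threshold on their levels, but the list was drawn up with earlier results of these data known. All 37 were found among the 23284 gene symbols of the deposited tables. Among them 12 encode the stress kinase Gcn2 (Eif2ak4), transcription factors and feedback proteins, 8 act in amino acid synthesis and turnover, 3 make serine, 6 carry serine carbon into the folate cycle, and 8 transport amino acids. Of the 37, 30 averaged 1 FPKM or more over the 12 libraries. Atf3, Nupr1, Pycr1, Cbs, Chac1, Aldh1l2 and Slc7a3 lay below it.

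When amino acids run short, uncharged tRNA activates the kinase Gcn2, which phosphorylates the translation factor eIF2. General translation then falls while the mRNA of Atf4 is translated more, so that Atf4 activity can rise with little change in its mRNA. Atf4 binds DNA with C/EBP partners and raises genes of amino acid synthesis and uptake. Serine, made from a glycolytic intermediate, gives a carbon unit to folate as it becomes glycine, and that carbon is used for nucleotides. Dividing lymphocytes and T cell leukemias draw on this pathway, and asparagine supply is the target of asparaginase in the treatment of lymphoblastic leukemia.

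RNA sequencing was done in the mouse T cell leukemia line 8946 after transduction with a pair of retroviral vectors and sorting for both markers. Combined libraries carried the Notch1 mutant L1601P with GFP and Zmiz1 with NGFR, and control libraries carried the empty MigR1 and NGFR vectors. Between them stood 2 single-vector groups, with 3 libraries in each of the 4 groups. Notch1 is a receptor whose cleaved part activates transcription in T cells, and Zmiz1 is a PIAS-like transcriptional coactivator. The labels of the single-vector groups contradict each other: libraries titled Notch1 carry the cell line label MigR1/Zmiz1, and libraries titled Zmiz1 carry the cell line label L1601P/NGFR. Titles and column headers match each other, and the groups are called Notch1-titled and Zmiz1-titled here. Notch1 had 33.5 to 37.2 FPKM in combined, 22.1 to 42.2 in Notch1-titled, 1.92 to 2.34 in Zmiz1-titled and 1.80 to 1.97 in control libraries. Zmiz1 had 47.6 to 51.0 FPKM in combined, 0.194 to 0.221 in Notch1-titled, 67.7 to 74.4 in Zmiz1-titled and 0.170 to 0.180 in control libraries. Thus the genes carried by the vectors went with the titles. If the cell line label were right, statements on the single-vector groups would change places, and those on combined against control libraries and on the interaction would not. All groups come from 1 cell line in the same medium with added glutamine, and all of them, the control included, carried a GFP and an NGFR vector and were sorted. The level of the marker was not equal: Ngfr had 5.62 to 5.66 FPKM in combined, 61.4 to 80.3 in Notch1-titled, 7.23 to 7.71 in Zmiz1-titled and 82.8 to 88.9 in control libraries. The labels do not say that the libraries of a group came from separate cultures, so p-values measure the spread between these libraries, which may be technical.

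The values are FPKM, in which fragments are divided by transcript length and by the mapped total, and they summed to between 549098 and 606908 per library. Read totals are not given, and the ratios of low values between libraries placed relative depth between 0.773 and 1.21. Zmiz1-titled replicate 2 had the lowest depth, the lowest mean correlation to the rest (0.942, where the highest was 0.957) and the highest or lowest value of all 12 libraries for 12 of the 30 genes past the filter, against 1 to 8 for each other library. Counts of called genes are therefore also given without it. T lineage markers summed to 3086 to 3233 FPKM in combined, 3274 to 3722 in Notch1-titled, 2666 to 2950 in Zmiz1-titled and 3159 to 3270 in control libraries. Myeloid markers summed to 60.9 to 63.1 FPKM in combined, 53.1 to 60.2 in Notch1-titled, 93.5 to 101 in Zmiz1-titled and 99.2 to 103 in control libraries. Itgam made up nearly all of that sum, with Lyz2 at 0 in 11 of 12 libraries and Csf1r at 0 in 9. Of the B cell, erythroid, fibroblast and NK cell markers, Ms4a1, Hbb-b1, Dcn, Lum, Ncr1 and Klrd1 were at 0 in all 12 libraries. Their sums reached 0.554, 4.79, 1.86 and 0.541 FPKM, and the part of these marker differences in the results was not tested.

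Genes were called at a limma adjusted p below 0.05, adjusted over the 10152 genes that averaged 1 FPKM or more, and "rose" and "fell" are used of such genes only. The 7 genes below the filter were read from the same model fitted to all 23284 genes. Fold changes are log2 of FPKM + 1, given as value ± SE, and understate the change of genes near 1 FPKM. In bulk RNA, a change in the share of cells that express a gene and a change in RNA per cell cannot be told apart.

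Asparagine synthetase, the serine enzymes Phgdh and Psat1, the mitochondrial folate enzymes Shmt2 and Mthfd2 and the leucine transporter Slc7a5 rose with the Notch1 mutant, both without and with added Zmiz1. Cth and Slc1a4 rose with Zmiz1, both without and with the Notch1 mutant. Notch1-titled libraries had 9 of 37 genes higher and 0 lower than the control, where 3.19% of all genes tested were called higher and 2.30% lower. One of the 9, Chac1, was called without the filter, where 1.33% of genes were called higher. Combined libraries had 13 higher and 2 lower than Zmiz1-titled libraries, beside 2.67% and 1.19% of all genes. Zmiz1-titled libraries had 2 higher and 0 lower than the control, beside 1.07% and 1.03%. Combined libraries had 4 higher and 0 lower than Notch1-titled libraries, beside 0.827% and 0.680%. Against the control, combined libraries had 16 higher and 0 lower, beside 3.97% and 2.49%, and 1.66% higher in the fit without the filter.

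Scaling between libraries changed the split of calls over all genes. Against the control, Notch1-titled libraries had 324 genes higher and 233 lower as deposited, 266 and 287 after median ratio scaling, and 271 and 301 after quantile normalization. Combined against Zmiz1-titled libraries had 271 higher and 121 lower as deposited and 228 and 159 after median ratio scaling. Combined against control libraries had 403 and 253 as deposited and 332 and 356 after quantile normalization. Under both scalings the 37 genes had 9 higher and 1 lower, Slc1a4, in Notch1-titled against control libraries, and had 10 to 13 higher and 2 lower in combined against Zmiz1-titled libraries.

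Groups of 3 libraries that do not overlap are a wider measure. The number of the 37 genes with all libraries of the first group above all of the second was 19 in Notch1-titled against control (15.8% of all genes tested), 21 in combined against Zmiz1-titled (13.5%), 10 in Zmiz1-titled against control (8.75%), 14 in combined against Notch1-titled (7.60%) and 23 in combined against control (20.1%). All libraries lay below in 3, 2, 4, 0 and 0 of the 37 in the same comparisons, beside 10.3%, 7.54%, 9.12%, 7.81% and 13.5% of all genes. The median log2 fold change of the 30 genes past the filter was 0.30, 0.29, 0.13, 0.15 and 0.45 in the same order, and that of all genes tested lay between -0.00 and 0.02. Over all 37 genes, read without the filter, the medians were 0.19, 0.27, 0.08, 0.11 and 0.26. The counts of groups that do not overlap take in the 7 genes below the filter, while the shares beside them cover only genes past it. In Notch1-titled against control libraries, Chac1 is such a gene among the 19 above and Cbs among the 3 below.

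**Figure D1:**
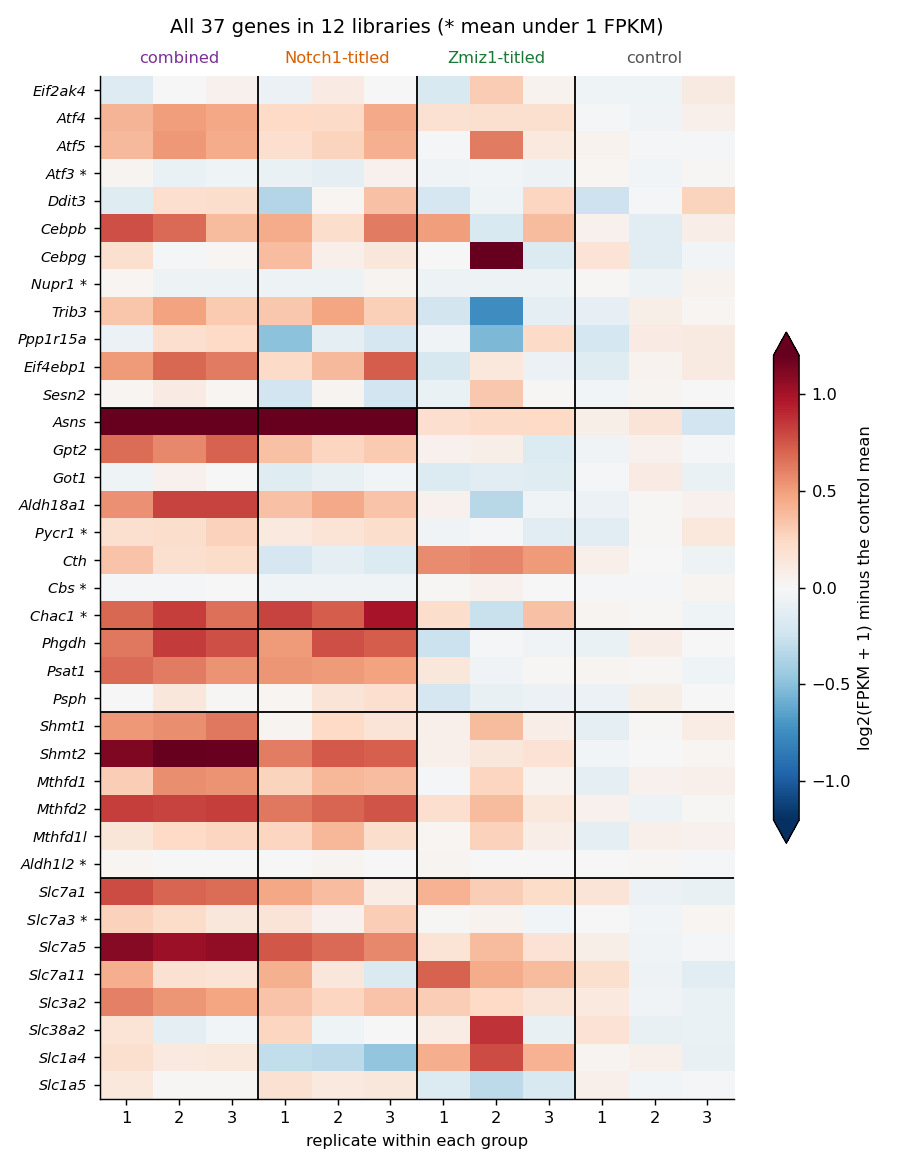
Log2 of FPKM + 1 minus the control mean for each of the 37 genes (rows, blocks by role) in the 12 libraries (columns, by group), with colours ending at 1.2 in either direction and an asterisk for genes with a mean under 1 FPKM. Asns runs past the scale in all combined and Notch1-titled libraries, as Cebpg does in Zmiz1-titled replicate 2, Cth and Slc1a4 are highest in Zmiz1-titled libraries, and Slc38a2 stands out in Zmiz1-titled replicate 2.

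Of the 3 serine synthesis genes, Phgdh and Psat1 rose with the Notch1 mutant in both settings and Psph did not pass the test. Phgdh (chromosome 3, 98313170 to 98339990, GRCm38) encodes the first enzyme of the pathway, which oxidizes 3-phosphoglycerate. It had 47.0, 54.6 and 51.9 FPKM in combined, 43.2, 52.1 and 50.3 in Notch1-titled, 24.9, 29.7 and 29.2 in Zmiz1-titled and 28.4, 31.8 and 29.9 in control libraries. The 6 libraries with the Notch1 mutant lay above the 6 without it, with no overlap. The log2 fold change was 0.67 ± 0.09 in Notch1-titled over control (limma adjusted p = 0.00179) and 0.85 ± 0.09 in combined over Zmiz1-titled libraries (adjusted p = 0.000428). With Zmiz1 it was -0.10 ± 0.09 without the mutant and 0.08 ± 0.09 with it, and both pairs of groups overlapped.

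Psat1 (chromosome 19, 15904678 to 15947337), the aminotransferase of the second step, had 59.2, 57.0 and 53.8 FPKM in combined, 53.4, 52.7 and 51.5 in Notch1-titled, 40.3, 35.4 and 37.1 in Zmiz1-titled and 37.5, 37.1 and 35.2 in control libraries. Its lowest library with the mutant, at 51.5 FPKM, was above the highest without it, at 40.3. The change was 0.51 ± 0.06 in Notch1-titled over control (limma adjusted p = 0.000632) and 0.58 ± 0.06 in combined over Zmiz1-titled libraries (adjusted p = 0.000325). Psph, the phosphatase of the last step, ranged from 14.1 to 15.6 FPKM in combined, 14.4 to 16.5 in Notch1-titled, 12.2 to 13.4 in Zmiz1-titled and 13.4 to 14.9 in control libraries. These ranges overlapped in 3 of the 4 pairs that differ by 1 vector. Its fold changes with the mutant were 0.13 ± 0.07 and 0.17 ± 0.07 (adjusted p = 0.364 and 0.263). Exons of Psph overlap those of Cct6a on the other strand in GENCODE, and the kit keeps no strand, so reads there cannot be assigned.

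Of the 6 genes that carry serine carbon into folate, Shmt2 and Mthfd2 rose with the Notch1 mutant in both settings, and Shmt1 rose where Zmiz1 was also present. Shmt2 (chromosome 10, 127517123 to 127522444), the mitochondrial serine hydroxymethyltransferase, had 58.6, 62.8 and 61.4 FPKM in combined, 40.9, 44.5 and 44.1 in Notch1-titled, 27.5, 29.0 and 29.9 in Zmiz1-titled and 25.8, 26.4 and 26.8 in control libraries. No pair of groups overlapped, in that order from high to low. It rose by 0.69 ± 0.05 in Notch1-titled over control (limma adjusted p = 3.76e-05) and by 1.05 ± 0.05 in combined over Zmiz1-titled libraries (adjusted p = 1.42e-06). It was the 1 folate gene that also rose with Zmiz1 beside the mutant, by 0.49 ± 0.05 (adjusted p = 0.000949), while Zmiz1-titled over control gave 0.12 ± 0.05 (adjusted p = 0.371). All 3 of those calls held in every alternative processing run.

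Mthfd2 (chromosome 6, 83305691 to 83325908), the mitochondrial dehydrogenase that follows Shmt2, had 40.7, 40.2 and 40.7 FPKM in combined, 35.5, 37.1 and 38.6 in Notch1-titled, 25.9, 29.4 and 24.7 in Zmiz1-titled and 23.3, 21.5 and 22.6 in control libraries. Groups did not overlap. The change with the mutant was 0.70 ± 0.07 without added Zmiz1 (limma adjusted p = 0.000171) and 0.59 ± 0.07 with it (adjusted p = 0.000552). With Zmiz1 the values were 0.23 ± 0.07 and 0.13 ± 0.07 and were not called.

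Shmt1, the cytosolic counterpart of Shmt2, had 9.09, 9.41 and 9.94 FPKM in combined, 6.20, 7.32 and 6.83 in Notch1-titled, 6.35, 8.16 and 6.47 in Zmiz1-titled and 5.55, 6.14 and 6.50 in control libraries. Combined libraries stood above all others, and the other 3 groups overlapped one another. It rose by 0.40 ± 0.09 over Zmiz1-titled libraries (limma adjusted p = 0.0440), and with 1 library left out at a time that value lay between 0.00709 and 0.166, above 0.05 for 10 of the 12. It also rose by 0.57 ± 0.09 over the control (adjusted p = 0.00483). Exons of Shmt1 overlap those of Smcr8 on the other strand. Mthfd1, the cytosolic enzyme with 3 activities in this cycle, ranged from 11.0 to 13.4 FPKM in combined and 8.07 to 9.22 in control libraries and rose there by 0.46 ± 0.09 (limma adjusted p = 0.0158), a call lost without control replicate 1 (0.0712) or combined replicate 2 (0.0787) or 3 (0.0764). With the mutant, Mthfd1 differed by 0.37 ± 0.09 in combined over Zmiz1-titled and by 0.35 ± 0.09 in Notch1-titled over control libraries, with no overlap (adjusted p = 0.0621 and 0.0620, called at 0.0235 and 0.0264 without Zmiz1-titled replicate 2). Mthfd1l, the mitochondrial formate-forming synthetase, ranged from 13.3 to 19.5 FPKM and was not called. Its Notch1-titled libraries lay above the control, by 0.29 ± 0.08 (limma adjusted p = 0.0786, called at 0.0303 without Zmiz1-titled replicate 2). Aldh1l2, a mitochondrial formyltetrahydrofolate dehydrogenase, was at or below 0.0324 FPKM in all 12 libraries.

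**Figure D2:**
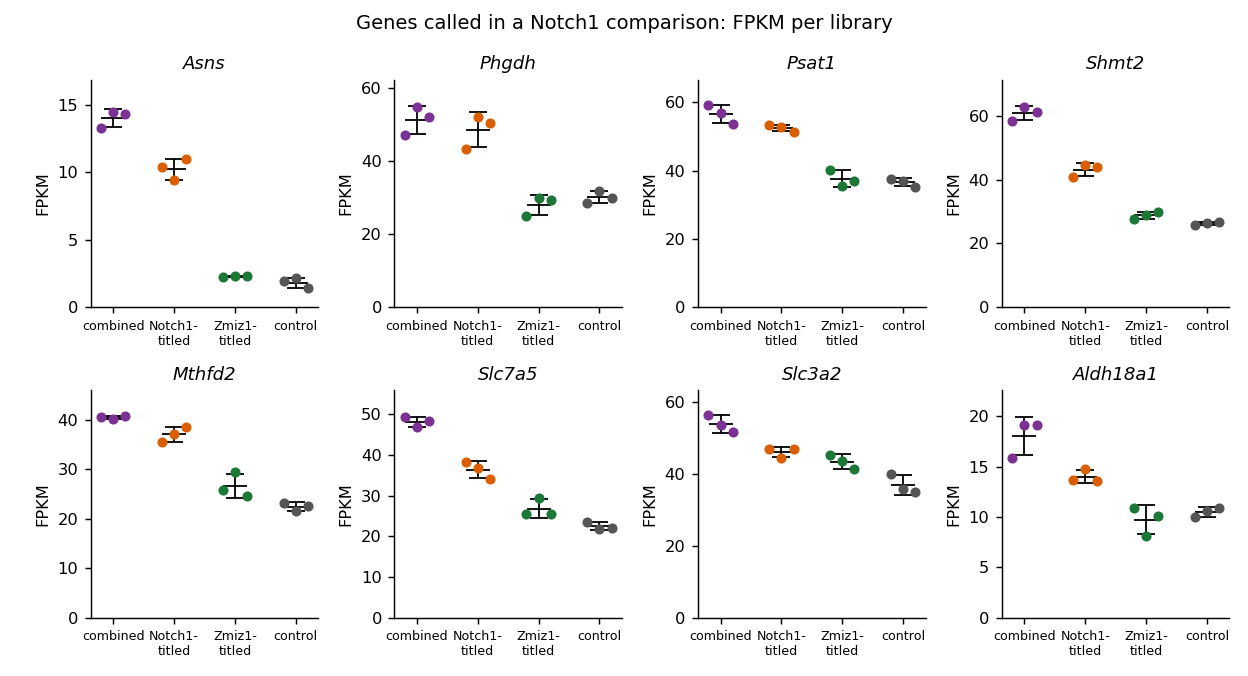
FPKM of 8 genes called in a Notch1 comparison, by group from combined on the left to control on the right, with 1 point per library and the mean ± SD (n = 3) in black, each axis starting at 0. Libraries with the Notch1 mutant lie above those without it in the panels of Asns, Phgdh, Psat1, Shmt2, Mthfd2, Slc7a5 and Aldh18a1, and Slc3a2 overlaps between the single-vector groups.

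Among the 8 genes of amino acid synthesis and turnover was Asns, whose change with the Notch1 mutant was the largest of the 37 on the log2(FPKM + 1) scale. Asns (chromosome 6, 7675169 to 7693254) makes asparagine from aspartate and glutamine. It had 13.3, 14.5 and 14.3 FPKM in combined, 10.4, 9.41 and 11.0 in Notch1-titled, 2.21, 2.29 and 2.30 in Zmiz1-titled and 1.93, 2.12 and 1.39 in control libraries. No pair of groups overlapped. The ratio of mean FPKM was 6.20 in combined over Zmiz1-titled, 5.65 in Notch1-titled over control and 7.73 in combined over control libraries. On the log2 scale the changes were 2.20 ± 0.10 (limma adjusted p = 6.48e-07), 2.01 ± 0.10 (adjusted p = 1.04e-06) and 2.43 ± 0.10 (adjusted p = 1.52e-07), which ranked 35, 44 and 33 from the highest of 10152 genes. With Zmiz1, Asns differed by 0.22 ± 0.10 without the mutant (adjusted p = 0.357) and by 0.42 ± 0.10 with it (adjusted p = 0.0629, called at 0.0202 without control replicate 3).

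Asns is a textbook Atf4 target through a composite C/EBP and ATF element, and the core letters TGATGNAA were searched on both strands (TTNCATCA on the other) in the RefSeq promoter windows of build GRCm38.p6, from 250 bases before to 50 after each start. They were found in 9 of the 31 genes of this set with a window (29.0%) and in 4.51% of all 27025 genes with one. The set was drawn up around the Atf4 response, so a higher share follows from its choice and is not a result. Eif4ebp1, Cth, Aldh1l2, Slc7a3, Slc7a5 and Slc1a5 had no window. Of the genes called in both Notch1 comparisons that have a window, Asns was the 1 with a match. The other 4 below were chosen after their values were seen: Chac1, which rose in Notch1-titled libraries, Slc1a4 and Slc7a11, which had their highest mean in Zmiz1-titled libraries, and Got1, which was not called in any comparison. Each is written 5′ to 3′ on the strand of its gene and ends with the match, in capitals.
Asns, chr6:7693225-7693284, minus strand: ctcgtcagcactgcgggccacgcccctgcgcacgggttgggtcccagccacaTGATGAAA
Chac1, chr2:119350997-119351056, plus strand: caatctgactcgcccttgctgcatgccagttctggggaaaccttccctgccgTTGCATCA
Slc1a4, chr11:20332710-20332769, minus strand: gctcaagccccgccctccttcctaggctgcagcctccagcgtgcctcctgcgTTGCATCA
Slc7a11, chr3:50443653-50443712, minus strand: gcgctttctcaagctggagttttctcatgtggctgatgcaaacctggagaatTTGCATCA
Got1, chr19:43524700-43524759, minus strand: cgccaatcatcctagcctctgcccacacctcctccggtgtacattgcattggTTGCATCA
The Asns match begins 23 bases before the RefSeq start, and that of Slc1a4 crosses its start. GENCODE starts the Asns gene further upstream, at 7693254, so by that annotation the match lies after the start. Slc7a11 holds 2 matches, which begin 47 and 66 bases before its start, and the one further upstream is in lower case above. The remaining matches were in the windows of Atf3, Nupr1, Pycr1 and, after the RefSeq start, Trib3. In GENCODE the Trib3 gene starts at 152344032, and its match lies before that start. A match describes letters only and was not tested for binding.

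Aldh18a1, the first enzyme of proline synthesis, had 15.8, 19.1 and 19.1 FPKM in combined, 13.6, 14.7 and 13.5 in Notch1-titled, 10.9, 8.09 and 10.1 in Zmiz1-titled and 9.97, 10.6 and 10.9 in control libraries. Libraries with the mutant lay above all without it. It rose by 0.83 ± 0.10 in combined over Zmiz1-titled libraries (limma adjusted p = 0.00103), while Notch1-titled over control gave 0.38 ± 0.10 (adjusted p = 0.0589, and 0.0135 without Zmiz1-titled replicate 2). Gpt2, the mitochondrial alanine aminotransferase, had 2.04, 1.86 and 2.13 FPKM in combined, 1.44, 1.29 and 1.38 in Notch1-titled, 0.980, 1.00 and 0.706 in Zmiz1-titled and 0.861, 0.984 and 0.893 in control libraries. It showed the same order, with only the Zmiz1-titled and control groups overlapping. Gpt2 rose by 0.67 ± 0.09 in combined over Zmiz1-titled (adjusted p = 0.00138) and by 0.65 ± 0.09 over control libraries (adjusted p = 0.00101), and Notch1-titled over control gave 0.31 ± 0.09 (adjusted p = 0.0661).

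Got1, the cytosolic aspartate aminotransferase, ranged from 22.8 to 27.5 FPKM over all 12 libraries and was not called in any comparison. Pycr1, the last enzyme of proline synthesis in mitochondria, ranged from 0.669 to 0.768 FPKM in combined, 0.578 to 0.689 in Notch1-titled, 0.338 to 0.437 in Zmiz1-titled and 0.328 to 0.587 in control libraries, and its largest change, 0.29 ± 0.06 in combined over Zmiz1-titled libraries, had an adjusted p of 0.0599. Cbs, which begins transsulfuration, was at or below 0.0707 FPKM in all libraries and was listed at 0 in the 3 Notch1-titled ones.

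Chac1, a glutathione-degrading enzyme of the stress response, had 1.00, 1.21 and 0.964 FPKM in combined, 1.18, 1.05 and 1.46 in Notch1-titled, 0.439, 0.0280 and 0.585 in Zmiz1-titled and 0.267, 0.255 and 0.198 in control libraries. The 6 libraries with the mutant lay above the 6 without it. The ratio of means was 5.13 in Notch1-titled over control libraries, at a level near 1 FPKM where values are imprecise. Without the filter it was called there (0.84 ± 0.15, limma adjusted p = 0.0215) and in combined over control libraries (0.73 ± 0.15, adjusted p = 0.0351), but not in combined over Zmiz1-titled libraries (0.63 ± 0.15, adjusted p = 0.0924). The first call was lost at pseudocounts of 0.1 and 0.01 (adjusted p = 0.135 and 0.339) and without any 1 control library (0.0708 to 0.0838) or Notch1-titled replicate 1 (0.0602) or 3 (0.0785). The second was lost in 12 alternatives, with any 1 control or combined library left out among them (0.0973 to 0.139).

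Cth (chromosome 3, 157894248 to 157925077), the transsulfuration enzyme that releases cysteine, ran the other way. It had 7.49, 6.66 and 6.81 FPKM in combined, 4.82, 5.24 and 4.97 in Notch1-titled, 8.92, 9.07 and 8.57 in Zmiz1-titled and 6.01, 5.70 and 5.41 in control libraries. Zmiz1-titled libraries were highest and Notch1-titled lowest, and no pair of groups overlapped. It rose with Zmiz1 by 0.56 ± 0.06 without the mutant (limma adjusted p = 0.000900) and by 0.41 ± 0.06 with it (adjusted p = 0.00679, and 0.0592 with only those 2 groups in the fit). Cth fell by 0.30 ± 0.06 in combined against Zmiz1-titled libraries (adjusted p = 0.0203), a call lost without Zmiz1-titled replicate 1 (0.0606) or combined replicate 2 (0.108) or 3 (0.10). Notch1-titled over control gave -0.16 ± 0.06 (adjusted p = 0.189). Combined libraries were 0.25 ± 0.06 above the control (adjusted p = 0.0358), a call lost without any 1 control or combined library (0.0579 to 0.156). The T lineage markers were also lowest in Zmiz1-titled libraries, and their part in these values and in those of Slc1a4 was not tested.

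Of the 8 transporters, Slc7a5 and Slc3a2 rose with the Notch1 mutant in both settings and Slc1a4 rose with Zmiz1 in both. Slc7a5 (chromosome 8, 121881150 to 121907694) is the light chain of the exchanger that imports leucine, and Slc3a2 is its heavy chain. Slc7a5 had 49.3, 46.7 and 48.2 FPKM in combined, 38.3, 36.7 and 34.1 in Notch1-titled, 25.4, 29.5 and 25.5 in Zmiz1-titled and 23.6, 21.8 and 22.2 in control libraries, and no pair of groups overlapped. The light chain rose by 0.67 ± 0.07 in Notch1-titled over control (limma adjusted p = 0.000308) and by 0.82 ± 0.07 in combined over Zmiz1-titled libraries (adjusted p = 6.00e-05). It also rose by 0.39 ± 0.07 in combined over Notch1-titled libraries (adjusted p = 0.0183), a call lost without any 1 combined library (0.0569 to 0.0919) and without Notch1-titled replicate 2 (0.0704) or 3 (0.0646).

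Slc3a2 (chromosome 19, 8706882 to 8723369) had 56.3, 53.5 and 51.5 FPKM in combined, 46.9, 44.3 and 46.9 in Notch1-titled, 45.2, 43.6 and 41.2 in Zmiz1-titled and 39.9, 35.8 and 34.8 in control libraries. Combined libraries were above all others and control below, with the single-vector groups overlapping. Its changes with the mutant were smaller than those of the light chain, 0.32 ± 0.06 in Notch1-titled over control (limma adjusted p = 0.0183) and 0.31 ± 0.06 in combined over Zmiz1-titled libraries (adjusted p = 0.0275). The first call was lost without control replicate 2 or 3 or Notch1-titled replicate 1 or 3 (0.0515 to 0.0902), and the second without any 1 combined library or Zmiz1-titled replicate 3 (0.0591 to 0.103). Combined over control libraries gave 0.54 ± 0.06 (adjusted p = 0.000624) and stayed called in every alternative.

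Slc1a4 (chromosome 11, 20302180 to 20332713), an exchanger of alanine, serine and cysteine, had 23.2, 22.0 and 22.1 FPKM in combined, 16.3, 16.0 and 14.2 in Notch1-titled, 27.7, 35.5 and 27.2 in Zmiz1-titled and 20.6, 21.1 and 19.0 in control libraries. The order of groups was that of Cth, again with no overlap. It rose with Zmiz1 by 0.55 ± 0.10 without the mutant (limma adjusted p = 0.0158) and by 0.51 ± 0.10 with it (adjusted p = 0.0249). Without Zmiz1-titled replicate 2 the first value was 0.43 (adjusted p = 0.0124), and without any 1 control library it was no longer called (0.0543 to 0.0912). The second was not called without any 1 Notch1-titled or combined library (0.0598 to 0.114). With the mutant, Slc1a4 fell by 0.40 ± 0.10 in combined against Zmiz1-titled libraries (adjusted p = 0.0458), which exceeded 0.05 in 10 of the 12 fits with 1 library left out (0.0526 to 0.174), and Notch1-titled over control gave -0.36 ± 0.10 (adjusted p = 0.0547, 0.00574 without that library).

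Slc1a5, the related glutamine exchanger, had 38.8, 35.9 and 36.0 FPKM in combined, 40.5, 38.6 and 39.3 in Notch1-titled, 31.6, 28.4 and 31.3 in Zmiz1-titled and 37.2, 34.7 and 34.9 in control libraries, so that Zmiz1-titled libraries were lowest. It rose by 0.27 ± 0.06 in combined over Zmiz1-titled libraries (limma adjusted p = 0.0285), a call lost without control replicate 2 or 3 or any 1 combined library (0.0517 to 0.107) and after median ratio scaling (0.0628). Slc7a1, which imports arginine and lysine, had 15.5, 14.5 and 14.3 FPKM in combined, 12.3, 11.4 and 9.22 in Notch1-titled, 11.8, 10.7 and 10.2 in Zmiz1-titled and 9.69, 8.16 and 8.01 in control libraries. It was called in combined over control libraries (0.72 ± 0.10, adjusted p = 0.00177), with 0.31 ± 0.10 in each single-vector group over the control (adjusted p = 0.12 in Notch1-titled and 0.20 in Zmiz1-titled libraries, the first called at 0.0317 without Notch1-titled replicate 3). Combined over Zmiz1-titled libraries gave 0.41 ± 0.10 (limma adjusted p = 0.0556, called at 0.0195 without Notch1-titled replicate 3 and at 0.0481 without 1). With the replicate number as a block, Slc7a1 was called in each single-vector group over the control. It was then also called in combined over each single-vector group (adjusted p = 0.00615 to 0.0316 in these comparisons).

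Slc7a11, the cystine importer, had 23.1, 19.2 and 18.9 FPKM in combined, 23.0, 18.6 and 14.8 in Notch1-titled, 28.1, 23.2 and 22.2 in Zmiz1-titled and 19.3, 16.2 and 15.3 in control libraries. Zmiz1-titled libraries did not overlap the control, but the change of 0.51 ± 0.15 was not called (limma adjusted p = 0.153). Within each group the values ran from high to low over replicates 1 to 3. With the replicate number as a block, Slc7a11 was called there (adjusted p = 0.00546) and in combined over control libraries (adjusted p = 0.0397). Slc38a2, which imports small neutral amino acids, had 161 FPKM in Zmiz1-titled replicate 2 and 81.4 to 105 in the other 11 libraries. Without that library its change in Zmiz1-titled over control libraries was -0.00, against 0.29 ± 0.21 with it. Slc7a3, a second arginine carrier, ranged from 0.127 to 0.242 FPKM in combined, 0.0623 to 0.255 in Notch1-titled, 0 to 0.0529 in Zmiz1-titled and 0 to 0.0415 in control libraries and was not called.

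**Figure D3:**
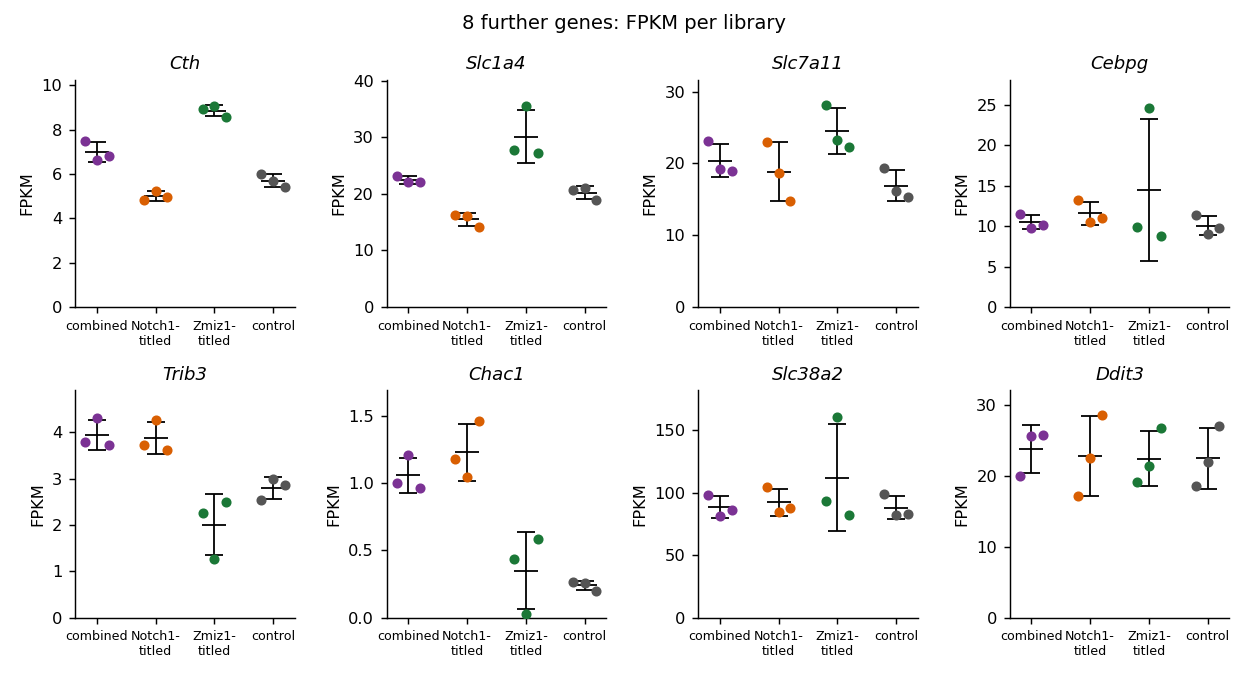
FPKM of 8 genes, by group from combined on the left to control on the right, with 1 point per library and the mean ± SD (n = 3) in black, each axis starting at 0. Cth and Slc1a4 are highest in Zmiz1-titled libraries, Zmiz1-titled replicate 2 is the high point of Cebpg and Slc38a2 and the low point of Trib3 and Chac1, and Ddit3 overlaps in all groups.

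Of the 12 regulators, 1 was called higher in Notch1-titled over control, 2 in combined over Zmiz1-titled, 0 in either Zmiz1 comparison and 2 in combined over control libraries. Of all genes tested, 3.19%, 2.67%, 1.07%, 0.827% and 3.97% were called higher in these comparisons, so that 0 of 12 in the Zmiz1 comparisons is near the share of any genes. Atf4 (chromosome 15, 80255184 to 80257541), the transcription factor of the response, had 94.8, 101 and 98.5 FPKM in combined, 84.2, 83.9 and 98.4 in Notch1-titled, 81.0, 81.7 and 81.6 in Zmiz1-titled and 70.1, 69.5 and 74.5 in control libraries. Only the combined and Notch1-titled groups overlapped. Its mRNA rose by 0.31 ± 0.07 in Notch1-titled over control libraries (limma adjusted p = 0.0222), a call lost without control replicate 1 (0.0841) or 2 (0.102) and with only those 2 groups in the fit (0.0960). Combined over Zmiz1-titled libraries gave 0.27 ± 0.07 (adjusted p = 0.0545), and combined over control libraries 0.45 ± 0.07 (adjusted p = 0.00204). The deposited values are mRNA levels, so Atf4 protein was not measured.

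Trib3, a pseudokinase that Atf4 raises and that holds Atf4 back, had 3.78, 4.30 and 3.71 FPKM in combined, 3.73, 4.27 and 3.62 in Notch1-titled, 2.25, 1.26 and 2.50 in Zmiz1-titled and 2.53, 2.98 and 2.86 in control libraries. The 6 libraries with the mutant lay above the 6 without it. It rose by 0.74 ± 0.14 in combined over Zmiz1-titled libraries (limma adjusted p = 0.0163, 0.0855 without combined replicate 2 and 0.0554 without 3), while Notch1-titled over control gave 0.36 ± 0.14 (adjusted p = 0.197). Without Zmiz1-titled replicate 2, which held the value of 1.26 FPKM, both were called, at 0.55 and 0.36 (adjusted p = 0.00771 and 0.0194). Eif4ebp1, a repressor of cap-dependent translation, had 15.6, 17.8 and 17.0 FPKM in combined, 12.6, 14.3 and 18.2 in Notch1-titled, 9.20, 11.7 and 10.1 in Zmiz1-titled and 9.53, 10.9 and 11.5 in control libraries. It rose by 0.66 ± 0.13 in combined over Zmiz1-titled (adjusted p = 0.0161) and by 0.61 ± 0.13 in combined over control libraries (adjusted p = 0.0163), and both calls were lost without combined replicate 2 (0.0855 and 0.0768) or 3 (0.0707 and 0.0663). The first was also lost without Zmiz1-titled replicate 1 (0.0607), and the second without control replicate 1 (0.0728) or 2 (0.0543). Notch1-titled over control libraries gave 0.45 ± 0.13 with no overlap (adjusted p = 0.0704), called without Zmiz1-titled replicate 2 (0.0471) or Notch1-titled replicate 1 (0.0372).

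The other 9 regulators were not called in any comparison. Ddit3 (Chop), which acts in prolonged stress, ranged from 20.0 to 25.9 FPKM in combined, 17.2 to 28.6 in Notch1-titled, 19.2 to 26.7 in Zmiz1-titled and 18.6 to 27.0 in control libraries. Its log2 fold changes lay between 0.00 and 0.09 with an SE of 0.19, and its exons overlap those of Mars on the other strand. Cebpb, a C/EBP partner of Atf4, ranged from 3.44 to 4.84 FPKM in combined, 2.95 to 4.25 in Notch1-titled, 2.00 to 3.83 in Zmiz1-titled and 2.12 to 2.61 in control libraries. Its exons overlap those of Tmem189 on the other strand, whose group means lay between 24.1 and 26.0 FPKM. Without Zmiz1-titled replicate 2, Cebpb was called in combined over control libraries (0.61, limma adjusted p = 0.0156), against 0.0758 with that library. It was also called there with a replicate block (0.0396) and with only those 2 groups in the fit (0.0259). Atf5, a further factor of the family, ranged from 11.8 to 13.1 FPKM in combined, 10.3 to 12.2 in Notch1-titled, 8.69 to 14.1 in Zmiz1-titled and 8.63 to 9.06 in control libraries. Without that library it was called in Notch1-titled over control (0.30, adjusted p = 0.0236) and combined over Zmiz1-titled libraries (0.40, adjusted p = 0.0177), against 0.267 and 0.503 with it. Combined over control libraries gave 0.45 (adjusted p = 0.0863, called at 0.00288 without that library and at 0.00506 with only those 2 groups). Exons of Atf5 overlap those of Nup62.

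Cebpg, another C/EBP partner, had 24.6 FPKM in Zmiz1-titled replicate 2 and 8.82 to 13.2 in the other 11 libraries. Its change in Zmiz1-titled over control libraries was 0.35 ± 0.29 with that library and -0.09 without it. Eif2ak4 ranged from 2.58 to 3.99 FPKM, Sesn2, which restrains mTORC1 when leucine is low, from 2.30 to 3.85, and Ppp1r15a, which helps to dephosphorylate eIF2, from 6.63 to 12.1. Atf3 was at or below 0.134 FPKM and Nupr1 at or below 0.0711, near 0 in all groups.

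**Figure D4:**
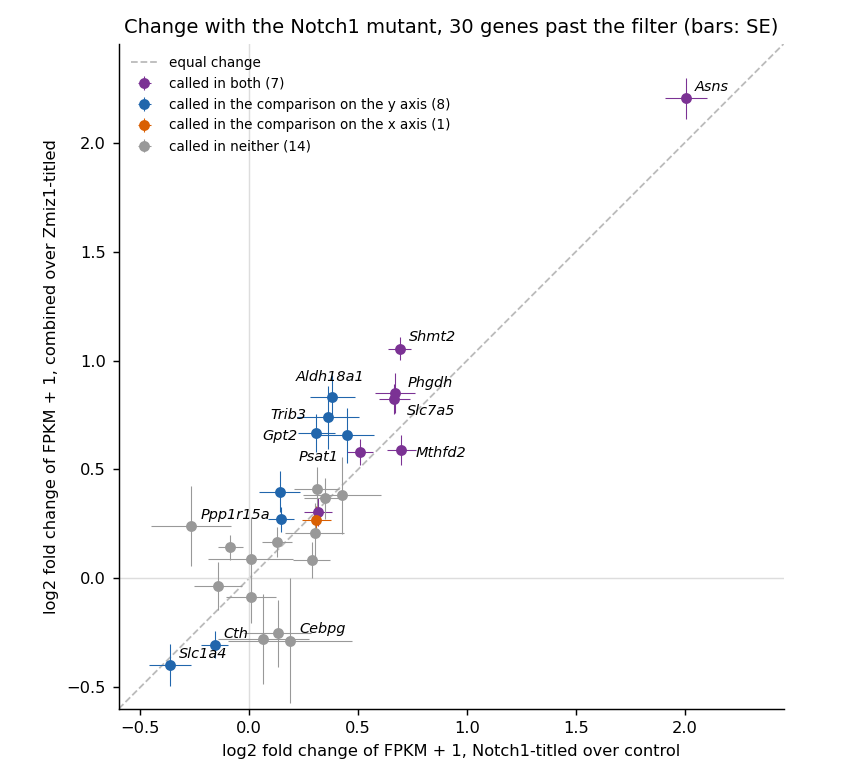
Log2 fold change of FPKM + 1 with the Notch1 mutant for the 30 genes past the filter, in Notch1-titled over control (x) and combined over Zmiz1-titled libraries (y), with SE bars and colours for the comparisons in which a gene was called. Of the 30 points, 24 have the same sign on both axes, Asns lies far out at 2.01 and 2.20, and Cth and Slc1a4 lie below 0 on both axes.

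The effect of the Notch1 mutant was measured in 2 comparisons that share no library, Notch1-titled over control and combined over Zmiz1-titled. Asns, Mthfd2, Phgdh, Psat1, Shmt2, Slc3a2 and Slc7a5 were called higher in both, which is 7 of the 9 called in the first and 7 of the 13 in the second. Over the 30 genes past the filter the fold changes had a Pearson r of 0.892 and a Spearman rho of 0.858, and 24 of 30 had the same sign. Over all genes tested the values were 0.191 and 0.595, with 72.2% of the same sign. These are descriptions across genes, which share libraries and are not independent replicates. Without Zmiz1-titled replicate 2, r was 0.924, rho 0.883 and 26 of 30 had the same sign.

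**Figure D5:**
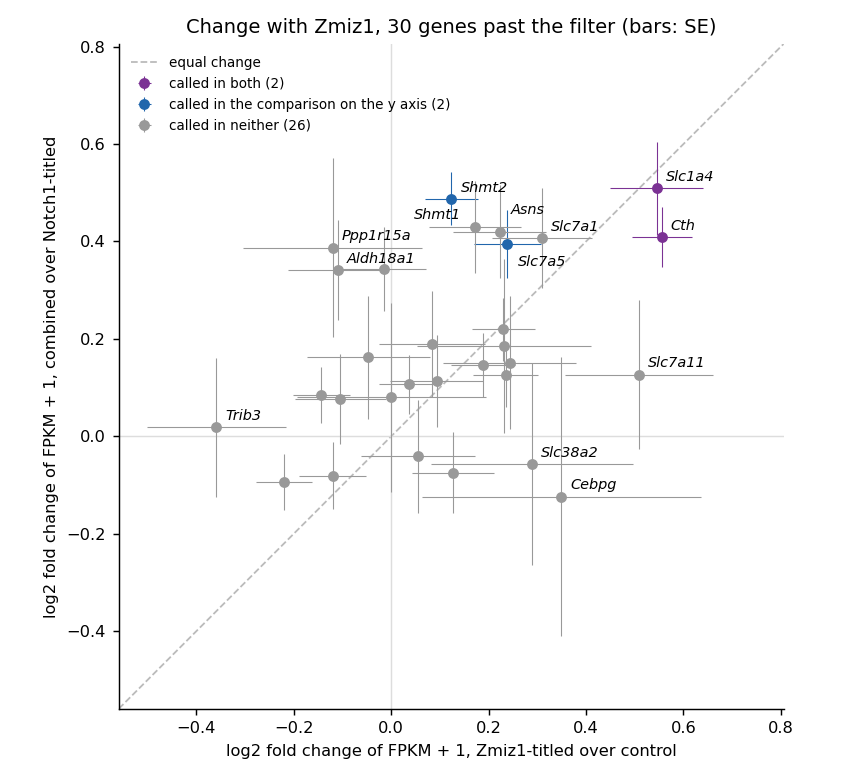
Log2 fold change of FPKM + 1 with Zmiz1 for the 30 genes past the filter, in Zmiz1-titled over control (x) and combined over Notch1-titled libraries (y), with SE bars and colours for the comparisons in which a gene was called. Cth and Slc1a4 are called on both axes, and Cebpg and Slc38a2 carry the widest bars.

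The effect of Zmiz1 was likewise measured in 2 comparisons that share no library. Cth and Slc1a4 were called higher in both, which is 2 of the 2 called in Zmiz1-titled over control and 2 of the 4 called in combined over Notch1-titled libraries, where Shmt2 and Slc7a5 were the other 2. The fold changes over 30 genes had an r of 0.340 and a rho of 0.337, with 19 of the same sign, and over all genes tested 0.114 and 0.442 with 65.9% of the same sign. Without Zmiz1-titled replicate 2 the values for the 30 genes were 0.540 and 0.644, with 23 of the same sign.

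Leaving out Zmiz1-titled replicate 2 raised the number of calls among the 37 genes in all comparisons but Zmiz1-titled over control and the interaction. Notch1-titled over control then had 16 of the 37 higher and 1 lower, beside 5.74% of all genes higher and 4.0% lower. Combined over Zmiz1-titled had 15 and 1, beside 2.82% and 1.42%, and combined over Notch1-titled libraries had 7 and 0, beside 1.61% and 1.41%. Zmiz1-titled over control kept Cth and Slc1a4, and combined over control libraries had 19 higher and 0 lower, beside 6.56% and 4.18%. In the 2 Notch1 comparisons, leaving out 1 other library gave 6 to 10 calls and 8 to 16 calls. The lowest of 6 came without control replicate 2, beside 1.69% of all genes higher and 0.985% lower. The lowest of 8 came without combined replicate 2 or 3, beside 1.33% or 1.30% higher and 0.512% lower. In combined over Notch1-titled libraries the count was 2 without Notch1-titled replicate 2 or 3 or any 1 combined library. Of all genes, 0.384% to 0.630% were then higher and 0.355% to 0.473% lower. In Zmiz1-titled over control it was 1, Cth, without any 1 control library, beside 0.433% to 0.542% higher and 0.296% to 0.502% lower. The calls over all genes were thus also fewer in these fits.

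Group means ran from combined to Notch1-titled to Zmiz1-titled to control in 12 of the 37 genes, and from combined to Notch1-titled to control to Zmiz1-titled in 7 more. Whether the combined change differed from the sum of the single changes on the log2 scale was tested as the interaction. None of the 37 was called by limma, where 7 of all genes tested (0.0690%) were. At an unadjusted p below 0.05, 4 of the 37 passed, all positive, beside 3.27% of all genes tested: Aldh18a1 (0.45 ± 0.15), Shmt2 (0.36 ± 0.08), Gpt2 (0.36 ± 0.12) and Got1 (0.23 ± 0.08). Shmt2 had the lowest adjusted p, 0.366, with a 95% interval of the interaction from 0.19 to 0.53. For Asns the interaction was 0.20 ± 0.13, and for Cth -0.15 ± 0.09. A p that misses the threshold does not show that the effects add up.

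A wider list held 70 further genes of the same pathways. Of the 70, 58 passed the filter. In Notch1-titled over control 7 were higher and 4 lower, in combined over Zmiz1-titled 5 and 1, in Zmiz1-titled over control 0 and 0, in combined over Notch1-titled 1 and 1 and in combined over control libraries 6 and 4. Of all genes tested, 3.19% and 2.30%, 2.67% and 1.19%, 1.07% and 1.03%, 0.827% and 0.680%, and 3.97% and 2.49% were called in the same order, so the counts in the Zmiz1 comparisons are near that share. Genes below the filter made up 3, 2, 0, 1 and 2 of the higher calls in that order. The 1 lower call in combined over Notch1-titled libraries was such a gene too. Without the filter, 1.33%, 1.03%, 0.520%, 0.361% and 1.66% of all genes were called higher, and 0.378% lower in combined over Notch1-titled libraries. For Zmiz1-titled over control, 10 of the 70 had an unadjusted limma p below 0.05, 5 in each direction, as did 1300 of the 10152 genes tested, a like share. None of the 12 eIF2 kinase and eIF2 machinery genes was called in any comparison, which at those shares is near what any 12 genes would give.

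Among the folate genes outside the set, Gcsh, the carrier protein of glycine cleavage, averaged 16.2 FPKM in combined, 15.0 in Notch1-titled, 11.1 in Zmiz1-titled and 10.4 in control libraries. It rose with the mutant by 0.51 ± 0.08 beside Zmiz1 (limma adjusted p = 0.00413) and by 0.49 ± 0.08 without it (adjusted p = 0.00404). Slc19a1, the reduced folate carrier, rose by 0.54 ± 0.08 in combined over Zmiz1-titled libraries (adjusted p = 0.00312), and Fpgs, which retains folate in cells, by 0.37 ± 0.08 in Notch1-titled over control libraries (adjusted p = 0.0291, 0.0123 to 0.111 with 1 library left out). Bcat1, the cytosolic branched-chain aminotransferase, averaged 1.06 FPKM in combined, 0.682 in Notch1-titled, 0.170 in Zmiz1-titled and 0.141 in control libraries. It was called, without the filter, in 4 comparisons, with 0.81 ± 0.04 in combined over Zmiz1-titled (adjusted p = 2.43e-05) and 0.29 ± 0.04 in combined over Notch1-titled libraries (adjusted p = 0.0162, 0.0104 to 0.0800 with 1 library left out).

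Stc2, a secreted glycoprotein and Atf4 target, averaged 0.775 FPKM in combined, 2.04 in Notch1-titled, 0.550 in Zmiz1-titled and 0.530 in control libraries. It rose by 0.99 ± 0.12 in Notch1-titled over control (limma adjusted p = 0.00369, without the filter) and fell by 0.78 ± 0.12 in combined against Notch1-titled libraries (adjusted p = 0.0258, 0.0176 to 0.0960 with 1 library left out). Slc43a1, a neutral amino acid transporter, averaged 146 FPKM in combined, 144 in Notch1-titled, 179 in Zmiz1-titled and 184 in control libraries and fell by 0.30 ± 0.05 in combined against Zmiz1-titled (adjusted p = 0.00518) and by 0.34 ± 0.05 in Notch1-titled against control libraries (adjusted p = 0.00170). Slc7a7 and Slc38a1 fell by 0.39 ± 0.09 and 0.37 ± 0.09 in Notch1-titled against control libraries (adjusted p = 0.0356 and 0.0420, up to 0.128 and 0.147 with 1 library left out). Glul, glutamine synthetase, fell there by 0.26 ± 0.06 (adjusted p = 0.0275, up to 0.110).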

How the data were processed

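RNA sequencing values of 12 libraries of cell line 8946 were used, 1 deposited file each. Per the submitters' processing notes, the tools were Cuffdiff 2.1.1 with Cufflinks, Bowtie2 2.1.0.0, TopHat2 2.0.9 and FastQC 0.10.0, on build mm10. Their order and settings, and the gene annotation, are not given in the sources used here. The authors deposited FPKM per gene symbol, and the kit named in the labels (TruSeq mRNA v2) keeps no strand. Read totals were not given. For each pair of libraries, the log ratios of the values of 4235 low genes were taken. The point where most of them lay, in a window of 0.01, gave the relative depth. These windows held a median of 4.69% of the genes compared.

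From these values, log2(FPKM + 1) was fitted with limma 3.58.1 in R 4.3.3, with 4 group means, all 12 libraries in 1 fit, a mean-variance trend and two-sided tests. The filter was a mean of 1 FPKM, and p-values were Benjamini-Hochberg adjusted over all genes tested. With 3 libraries a group, the smallest two-sided exact permutation p is 0.1. The fit was checked on simulated data. Groups follow the titles. The 37 genes and the other lists were chosen with earlier results of these data known. All 37 are named, and of the other pathway genes at most the 4 with the largest called change per comparison and list. Not every called gene of those lists is named. Of 7 methionine cycle and glutathione genes, 1 was called higher in each Notch1 comparison, beside 3.19% and 2.67% of all genes, and none is named. Of 16 other folate and glycine cleavage genes, 4 were called higher in combined over control libraries, beside 3.97%, and values there are not given. Gene positions are from GENCODE M21 on GRCm38, and promoter windows from RefSeq on GRCm38.p6. Alternatives were pseudocounts of 0.1 and 0.01, no filter, a filter at 5 FPKM, median ratio scaling, quantile normalization, a replicate block, only the groups compared, robust variances, and each library left out. Wherever "in every alternative" is written, it means these.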

Additional observations from a re-analysis of the deposited data

How the results depend on the processing

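Over all alternatives, the call of a gene of the set for a comparison was as in the report in 4444 values, gained in 64 and lost in 117, and 0 called values changed sign. The numbers of genes called, in the order Notch1-titled over control, combined over Zmiz1-titled, Zmiz1-titled over control, combined over Notch1-titled, combined over control and interaction, were 557, 392, 214, 153, 656 and 7. With each library left out in turn they ranged over 272 to 989, 184 to 505, 74 to 241, 75 to 306, 339 to 1090 and 5 to 8, and those of the 37 over 6 to 17, 8 to 16, 1 to 2, 2 to 7, 12 to 19 and 0 to 0. Whether the replicate numbers pair the libraries is not settled by these values, and the main fit holds no block. Of 18 correlations between same-numbered libraries of different groups, from -0.176 to 0.267, 6 exceeded 0.1. Those between other numbers ran from -0.233 to 0.198, and 2 libraries correlated best with their own number in every other group. In each group, Slc7a1 and Slc7a11 ran from high to low over replicates 1 to 3, and Ddit3 from low to high. With the number as a replicate block, 1059, 721, 365, 260, 1158 and 7 genes were called, and 15, 18, 6, 7, 19 and 0 of the 37, with Slc7a1 called in the 4 comparisons where it was not before (0.00615 to 0.0316) and Slc7a11 in Zmiz1-titled over control (0.00546) and combined over control (0.0397). Fitted without the other groups, combined over Zmiz1-titled had 155 genes and 9 of the 37, Zmiz1-titled over control 49 and 1, combined over Notch1-titled 2 of the 37 and combined over control 1386 genes. That fit cannot be run for the interaction. A filter at 5 FPKM, which tests fewer genes, gave 121 in Zmiz1-titled over control, 101 in combined over Notch1-titled and 3 in the interaction. The interaction had 3 genes at pseudocounts of 0.1 and 0.01 and 25 without the filter. The cause of these differences was not tested. With read totals not in the files, no counting error could be given, and genes near 1 FPKM are the least precise.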
